A study of Mus musculus with 12 samples.

Results

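The 10 genes described here guide and sort the axons of olfactory sensory neurons or mark the activity of these neurons: Sema3a, Nrp1, Plxna1, Efna5, Epha5, Kirrel2, Kirrel3, Pcdh10, S100a5 and Pcp4l1. They were chosen by gene symbol, and all 10 were found among 39395 genes with complete rows. The samples were olfactory mucosa from male mice at postnatal day 30 on a 129S6;C57BL/6J background. There were 6 wildtype animals and 6 animals with the delta large deletion genotype, which lack 408217 bp of chromosome 7 (GRCm38, 102509797 to 102918014), studied as an enhancer of class I odorant receptor genes. Sources used here do not give the zygosity of the deletion or the number of founder lines. Total RNA was ribodepleted and sequenced from 1 library per animal.

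Each olfactory sensory neuron expresses mainly a single odorant receptor gene, and axons of neurons with the same receptor converge on common glomeruli in the olfactory bulb. Receptor signalling through cyclic AMP sets the amount of several axonal membrane proteins, so that the receptor helps decide where an axon ends. Ligand-independent receptor activity is linked to Nrp1 and Plxna1, which act in coarse positioning along the bulb, while stimulus-driven activity through the cyclic nucleotide-gated channel is linked to adhesion and repulsion molecules such as Kirrel2, Kirrel3, ephrins and Eph receptors, which act in local sorting. The comparison asks whether the tissue levels of these genes differ in animals that lack the interval.

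The promoters of the 4 genes below are shown because S100a5, Pcp4l1 and Kirrel2 were the members with the highest levels, and Pcdh10 was the member whose promoter held a shorter form of the cyclic AMP response element. The sequences come from RefSeq on GRCm38.p6 and run from 250 bases before to 50 after the annotated start, 5′ to 3′ on the strand of the gene. They lie at chr7:30457466-30457765 (minus strand, Kirrel2), chr3:90608272-90608571 (plus strand, S100a5), chr1:171196219-171196518 (minus strand, Pcp4l1) and chr3:45378148-45378447 (plus strand, Pcdh10). Capitals mark the motifs searched.
Kirrel2: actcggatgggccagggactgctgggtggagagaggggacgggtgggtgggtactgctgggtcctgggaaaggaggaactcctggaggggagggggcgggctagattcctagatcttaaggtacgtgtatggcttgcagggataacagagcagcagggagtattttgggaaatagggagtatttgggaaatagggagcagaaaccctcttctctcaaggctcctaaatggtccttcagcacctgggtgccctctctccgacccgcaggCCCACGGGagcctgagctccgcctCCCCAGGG
S100a5: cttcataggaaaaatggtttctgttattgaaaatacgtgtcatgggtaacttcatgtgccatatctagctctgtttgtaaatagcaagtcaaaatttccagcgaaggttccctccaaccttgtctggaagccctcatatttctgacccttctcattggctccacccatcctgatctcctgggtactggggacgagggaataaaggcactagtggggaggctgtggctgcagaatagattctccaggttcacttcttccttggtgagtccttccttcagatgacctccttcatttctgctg
Pcp4l1: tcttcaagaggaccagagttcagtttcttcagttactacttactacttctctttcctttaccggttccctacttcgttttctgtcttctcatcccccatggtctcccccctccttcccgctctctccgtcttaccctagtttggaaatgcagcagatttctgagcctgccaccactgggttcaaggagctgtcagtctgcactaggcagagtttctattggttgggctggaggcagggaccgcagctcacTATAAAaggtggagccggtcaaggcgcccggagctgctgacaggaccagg
Pcdh10: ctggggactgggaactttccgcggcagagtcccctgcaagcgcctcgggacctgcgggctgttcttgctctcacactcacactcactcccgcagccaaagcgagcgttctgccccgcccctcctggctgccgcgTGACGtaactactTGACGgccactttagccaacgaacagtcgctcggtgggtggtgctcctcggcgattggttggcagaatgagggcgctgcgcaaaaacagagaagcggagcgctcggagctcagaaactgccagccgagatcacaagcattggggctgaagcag
Of the 10 genes, 8 matched a promoter entry, while Kirrel3 and Plxna1 had none. Motifs were searched on both strands in these 8 and in all 32851 promoters of the same length. The full cyclic AMP response element, TGACGTCA, was in 0 of the 8 and in 1.79% of all promoters. The shorter form TGACG, which is contained in the full site, was in Pcdh10 alone of the 8, with copies starting at positions -116 and -103 from the start, and in 20.8% of all promoters. The core of the site bound by Olf/Ebf factors, CCCNNGGG, was in Kirrel2 alone, with copies starting at positions 19 and 43, and in 13.7% of all promoters. The homeodomain motif TAATTA was in Epha5 alone (5.29% of all promoters), and the TATA box motif TATAAA in Pcp4l1 alone, where it begins at the annotated start (13.6%). These letters describe the windows only.

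Recovered reads ran from 13942401 to 18044908 in wild-type and from 10091239 to 18612011 in deletion libraries. The genotype labels held: 30 genes inside the interval had 10880 reads in wild-type and 3 in deletion libraries. Libraries differed in the share of genes with at least 1 read, from 65.2% to 69.3% in wild-type and from 67.2% to 94.6% in deletion libraries, with the highest in deletion replicates 3 and 2. The defining markers were present throughout. Omp, the mature neuron marker, ran from 49705 to 77020 normalized counts (reads over a size factor per library) in wild-type and from 46391 to 68841 in deletion animals. In bulk tissue, fewer cells of a type and less RNA per cell cannot be told apart.

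The 10 genes spanned a wide range of levels. Per length, S100a5 had the highest level, at 3341 ± 643 RPKM (reads per kb of exon, scaled to the reads of the library) in wild-type animals (SD, n = 6), rank 12 among 17296 tested genes with a known exon length. It encodes a small EF-hand calcium-binding protein and is used as a marker of olfactory neuron activity. Pcp4l1, which encodes a small protein related to the calmodulin regulator PCP4, followed at 327 ± 64.6, and Kirrel2, a homophilic immunoglobulin adhesion protein, at 161 ± 27.7 (both SD, n = 6, same scale). Plxna1, the signalling co-receptor for class 3 semaphorins, was at 25.4 ± 4.16 RPKM.

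The other 6 genes lay between 3.24 and 9.58 RPKM. Nrp1, the semaphorin-binding receptor, was at 9.58 ± 0.488, Efna5 at 7.75 ± 1.65, Epha5 at 6.20 ± 0.958 and Kirrel3 at 5.84 ± 0.815 (SD, n = 6). The secreted ligand Sema3a was at 3.43 ± 0.344 and Pcdh10, a non-clustered protocadherin, at 3.24 ± 1.30. Between neighbours in this order, the wild-type ranges overlapped for Nrp1 and Efna5, Efna5 and Epha5, Epha5 and Kirrel3, and Sema3a and Pcdh10, and did not overlap for the other 5 pairs. In the mean over deletion animals Epha5 stood above Efna5, with overlapping ranges.

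**Figure D1:**
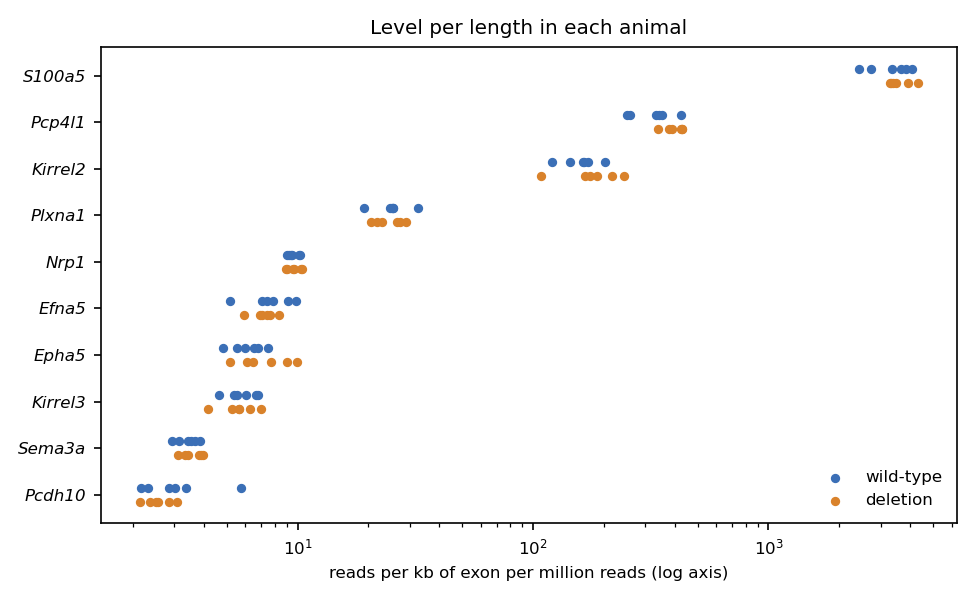
Level of each gene in each animal, as RPKM on a log axis, with wild-type animals in blue and deletion animals in orange. S100a5, Pcp4l1, Kirrel2 and Plxna1 are separated from each other and from the remaining 6 genes, which lie close together.

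Levels per length were compared within pairs of related genes. Kirrel2 was 17.7 to 37.8 times Kirrel3 in wild-type animals (median 28.9) and 20.6 to 58.2 times in deletion animals (median 28.8). Nrp1 was 2.55 to 3.22 times its ligand Sema3a in wild-type (median 2.69) and 2.25 to 3.15 times in deletion animals (median 2.67). The ratio of Epha5 to its ligand Efna5 was 0.490 to 1.07 in wild-type (median 0.844) and 0.745 to 1.29 in deletion animals (median 1.05). Kirrel2 was above Kirrel3 and Nrp1 above Sema3a in every animal, while the ratio of Epha5 to Efna5 lay on both sides of 1. All of these ranges overlapped between the genotypes. Without division by length, the wild-type mean was 1562 normalized counts for Epha5 and 467 for Efna5. The exon lengths used were 16739 and 4032 bp, so the ratio of this pair depends on them.

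None of the 10 genes differed between the genotypes after adjustment over all genes. Of 17320 genes tested by limma, 86 passed an adjusted p of 0.05, which is 0.497% of all tested. Of these, 9 were higher (0.052%) and 77 lower (0.445%) in deletion animals. All 10 genes passed the expression filter and 0 of them passed the test, each with a limma adjusted p of 0.955. Before adjustment 1 of the 10, Pcp4l1, had a p under 0.05 and was higher. Among all tested genes 4.39% had such a p, 2.02% higher and 2.37% lower. EdgeR and DESeq2 also called 0 of the 10, and both had Pcp4l1 alone at an unadjusted p under 0.05. The ranges of the genotypes overlapped for all 10, and did not overlap for 0.629% of tested genes. The median log2 fold change (deletion over wild-type, on the log2(value + 1) scale) was 0.00 over the 10 genes and -0.01 over all tested genes, with 5 of the 10 positive and 5 negative.

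**Figure D2:**
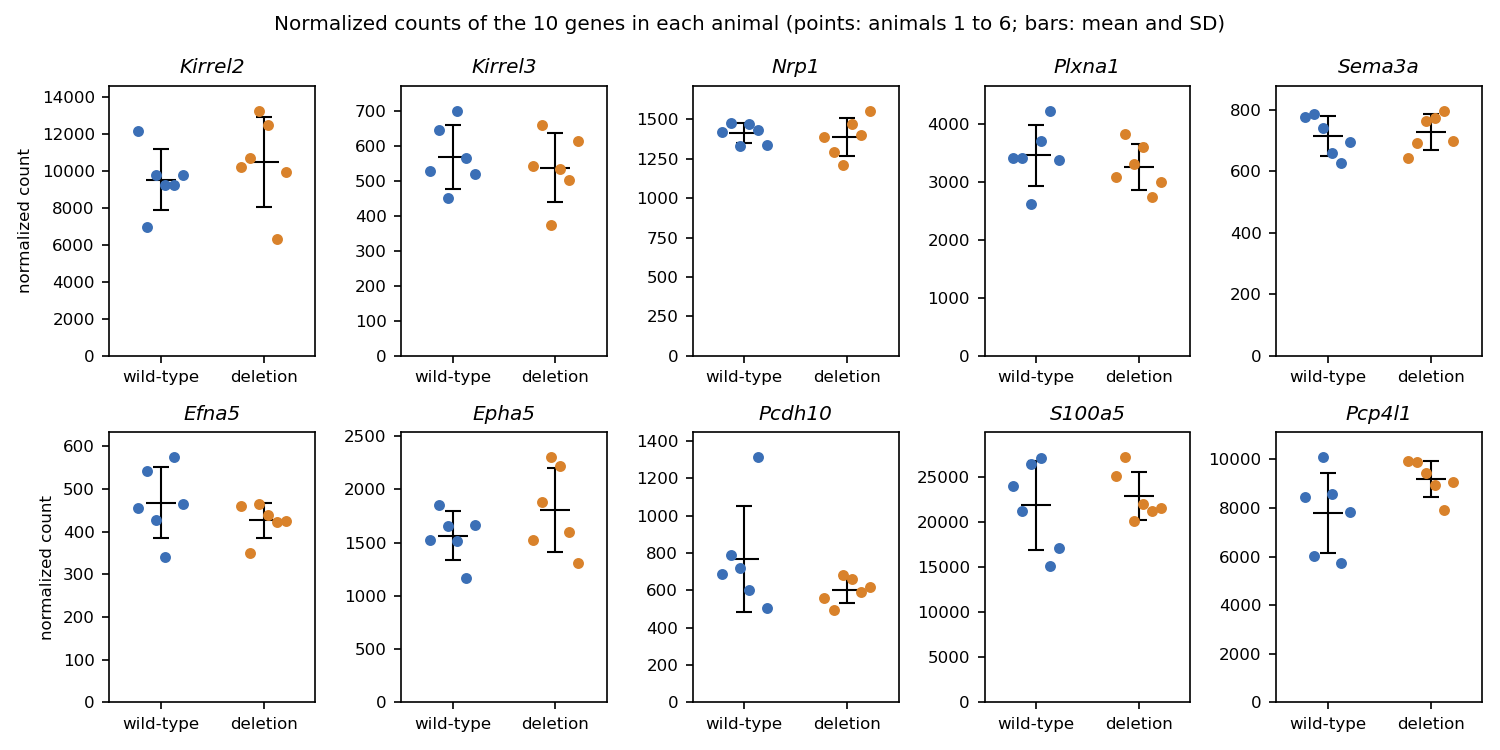
Normalized counts of the 10 genes in each animal, with 1 point per animal in order of replicate number, and bars for the mean and SD of 6 animals. The genotypes overlap in every panel, and wild-type replicate 5 stands apart for Pcdh10 at 1313.

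Of the semaphorin genes, Nrp1 (ENSMUSG00000025810.9, chromosome 8, 128358604 to 128503363) was among the least variable. Its normalized counts had a lowest, median and highest value of 1333, 1423 and 1477 in wild-type and of 1211, 1396 and 1555 in deletion animals. The deletion animals spanned the whole wild-type range. The log2 fold change was -0.03 ± 0.06 (SE), and the 95% interval of the fold was 0.896 to 1.08.

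Plxna1, through which neuropilin signals are passed into the axon, had 2623, 3404 and 4225 in wild-type and 2738, 3197 and 3816 in deletion animals. The log2 fold change was -0.08 ± 0.10 (SE), with an interval of the fold of 0.818 to 1.09. An antisense gene overlaps its exons with a mean of 121 reads. The library kit keeps strand, but the strand setting of the counting is not stated, so reads of these 2 genes may be mixed. Sema3a, the repulsive ligand that sensory axons and other cells of the tissue secrete, had 628, 717 and 787 in wild-type and 645, 731 and 798 in deletion animals. Its ranges nearly coincided, with a log2 fold change of 0.03 ± 0.07 (SE) and an interval of the fold of 0.920 to 1.13.

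The ephrin pair showed small opposite differences that did not pass. Efna5, a membrane-anchored repulsive ligand, had 341, 459 and 574 in wild-type and 350, 431 and 466 in deletion animals. All deletion values lay within the wild-type range, and the log2 fold change was -0.12 ± 0.11 (SE; 95% interval of the fold 0.789 to 1.08). Epha5, a receptor tyrosine kinase for ephrin-A ligands, had 1168, 1586 and 1856 in wild-type and 1312, 1737 and 2302 in deletion animals. Deletion replicates 2, 3 and 4 lay above every wild-type animal and replicates 1, 5 and 6 within their range. The log2 fold change was 0.19 ± 0.14 (SE; 95% interval of the fold 0.927 to 1.41).

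Among the adhesion genes, Kirrel2 (ENSMUSG00000036915.17, chromosome 7, 30447534 to 30457690) lies 72.1 Mb from the deletion. Neurons raise Kirrel2 and lower Kirrel3 with activity, and like pairs of these proteins bind each other between axons. Kirrel2 had a lowest, median and highest normalized count of 6973, 9518 and 12154 in wild-type and of 6312, 10482 and 13280 in deletion animals. The lowest and the highest of all 12 values were both in deletion animals, replicates 5 and 3. The log2 fold change was 0.12 ± 0.17 (SE), with an interval of the fold of 0.843 to 1.40.

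Kirrel3 had 452, 546 and 701 in wild-type and 374, 538 and 660 in deletion animals. The lowest value was that of deletion replicate 3, and the log2 fold change was -0.09 ± 0.13 (SE; 95% interval of the fold 0.781 to 1.13). Pcdh10, which mediates adhesion between like axons, had 503, 704 and 1313 in wild-type and 495, 603 and 680 in deletion animals. Its log2 fold change of -0.30 ± 0.19 (SE) had the largest size of the 10, and the 95% interval of the fold was 0.612 to 1.08. Without wild-type replicate 5, the animal at 1313, it was -0.13. In the authors' deposited table, which gives wild-type over deletion, Pcdh10 had a log2 fold change of 0.15 with a p-value of 0.0459 and an adjusted p of 0.988. The deposited SE was 0.076, against 0.19 by limma. These estimates may be on unlike scales, so their sizes were not compared.

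Of the activity markers, S100a5 (ENSMUSG00000001023.10, chromosome 3, 90608523 to 90611780) had 15178, 22660 and 27076 in wild-type and 20156, 21829 and 27228 in deletion animals. Wild-type replicates 5 and 6 lay below every deletion animal and the other 4 wild-type animals among them. The log2 fold change was 0.09 ± 0.13 (SE; 95% interval of the fold 0.878 to 1.29).

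Pcp4l1 (ENSMUSG00000038370.6, chromosome 1, 171173262 to 171196268) had 5723, 8156 and 10097 in wild-type and 7930, 9255 and 9942 in deletion animals. Wild-type replicates 2, 5 and 6 lay below every deletion animal, and wild-type replicate 3 above every one. The log2 fold change was 0.26 ± 0.12 (SE; limma unadjusted p = 0.0380, adjusted p = 0.955), and the 95% interval of the fold was 1.01 to 1.43 before adjustment. In the authors' deposited table it had a log2 fold change of -0.15, wild-type over deletion, with a p-value of 0.0444 and an adjusted p of 0.988. The deposited SE was 0.075, and here too the scale may differ from that of limma.

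**Figure D3:**
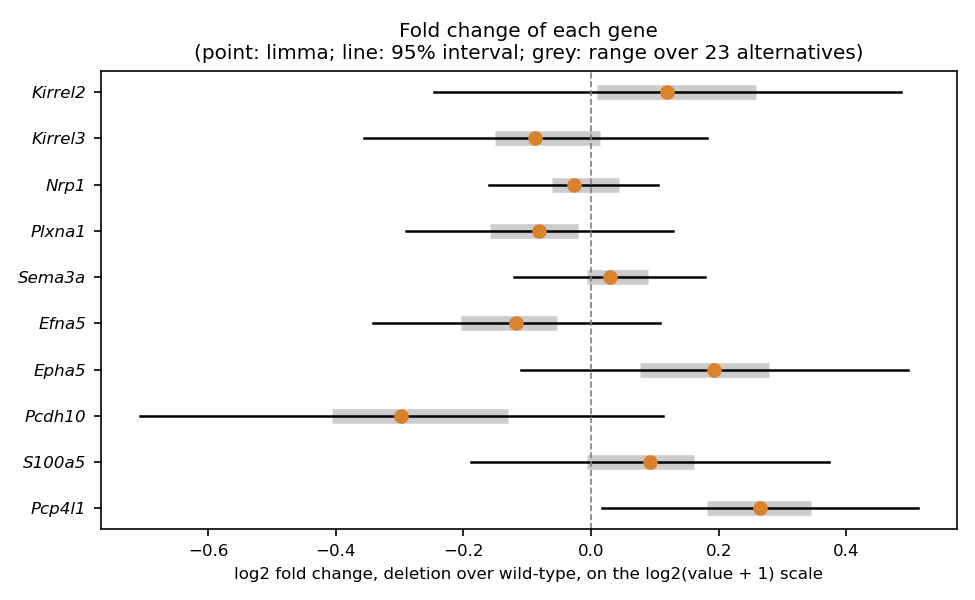
Log2 fold change of each gene, deletion over wild-type on the log2(value + 1) scale. Points are the limma estimates, black lines their 95% intervals before adjustment, and grey bars the range over 23 alternatives. Every interval but that of Pcp4l1 includes 0.

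Most of these genes varied more between animals of the same genotype than other genes at their level. For each gene the SD of log2(value + 1) within genotype was compared with that of tested genes at 0.5 to 2 times its mean. The SD exceeded that of 80% of such genes for 8 of the 10 members, where 19.0% of all tested genes did so. The median of this percentile was 91.6 over the 10 genes and 50.3 over all tested genes. The SD was 0.35 for Pcdh10, 0.32 for Kirrel2, 0.28 for Epha5, 0.27 for S100a5, 0.26 for Kirrel3, 0.24 for Pcp4l1, 0.22 for Efna5 and 0.20 for Plxna1. That was 1.57 to 2.79 times the median of genes of like level. By contrast Nrp1 (SD 0.10) and Sema3a (0.12) were at 0.872 and 0.991 times that median.

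Leaving out libraries that stood apart changed this count little. It was 8 of 10 without deletion replicates 2 and 3, and 7 of 10 without wild-type replicate 5. Among wild-type animals alone 8 of the 10 exceeded 80% of like genes, and among deletion animals alone 4 did, Kirrel2, Kirrel3, Plxna1 and Epha5. The immediate early genes, which neurons switch on with activity and tissues with handling, had 14 of 17 tested members above 80%. Mature neuron markers had 4 of 17, and the other ephrin pathway genes 1 of 16. A wide spread was also seen in lists of other kinds, with 5 of 10 for the other non-clustered protocadherins, 6 of 10 for bone and fibroblast markers and 5 of 6 for erythroid markers.

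**Figure D4:**
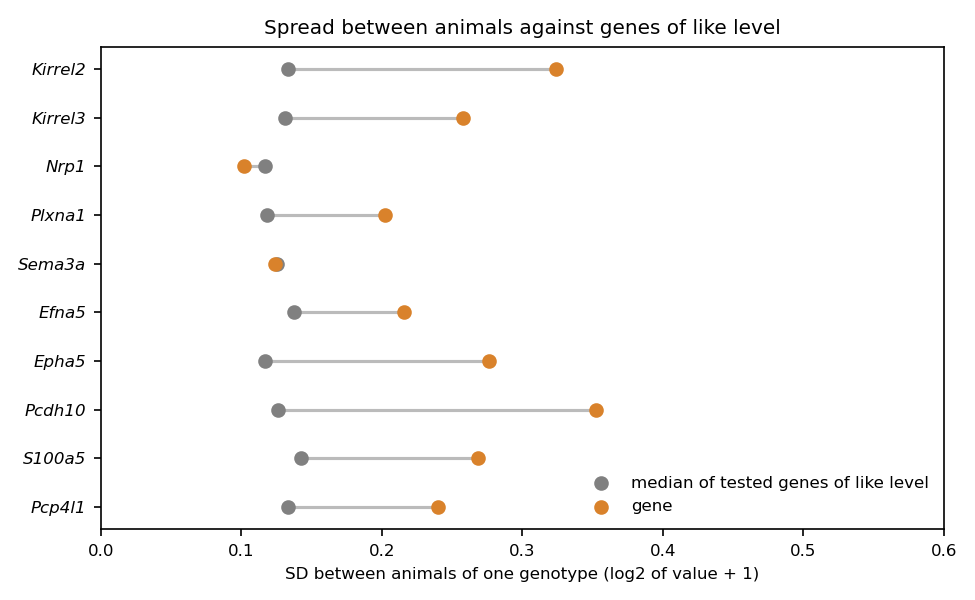
SD between animals of one genotype on the log2(value + 1) scale for each gene (orange), beside the median SD of tested genes at 0.5 to 2 times its mean (grey). Nrp1 and Sema3a lie near the grey points and the other 8 genes to the right of them.

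Single animals contributed unequally to the spread. Wild-type replicate 5 was the highest or lowest of its group for 7 of the 10 genes, against 35.9% of all tested genes. It was lowest for S100a5, Pcp4l1, Epha5 and Sema3a and highest for Plxna1, Efna5 and Pcdh10. Omp in this animal was at 56195, within the range of the other wild-type animals, and Cyp2g1, the supporting cell marker, was lowest in it at 37738. Deletion replicate 3 was also at an extreme for 7 of the 10, against 45.5% of all tested genes, and was the library with reads on the most genes. The part of that library's excess of detected genes in these values was not tested.

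**Figure D5:**
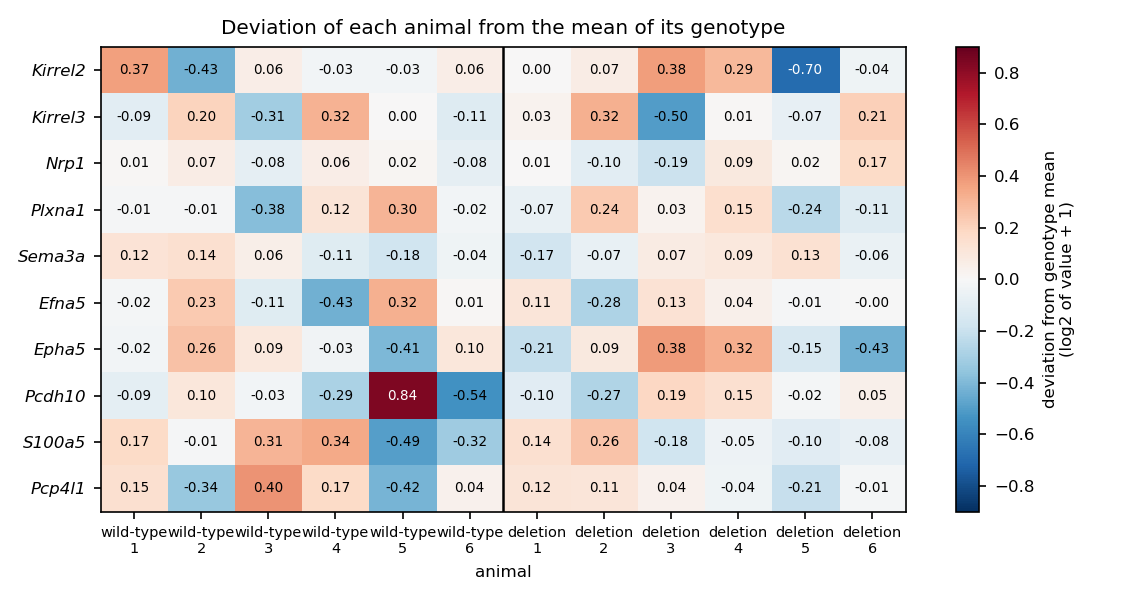
Deviation of each animal from the mean of its genotype, on the log2(value + 1) scale, for each gene (rows) and animal (columns, wild-type to the left of the line). Wild-type replicate 5 combines the highest Pcdh10 value with low S100a5, Pcp4l1 and Epha5, and deletion replicate 5 has the lowest Kirrel2 value.

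Whether pairs of these genes varied together was examined over the 12 animals as deviations from genotype means, with permutations within genotype. For S100a5 and Pcp4l1, Pearson's r was 0.72 (permutation p = 0.0481, 0.289 adjusted over 6 pairs) and Spearman's rho 0.75 (permutation p = 0.0236, adjusted 0.142). Within genotypes r was 0.74 in wild-type and 0.62 in deletion animals. It was 0.54 without wild-type replicates 4 and 5, the animals farthest from the median of S100a5. The relation therefore did not pass adjustment. The other 5 pairs, Kirrel2 and Kirrel3, Kirrel2 and S100a5, Efna5 and Epha5, Nrp1 and Sema3a, and Nrp1 and Plxna1, had r from -0.33 to 0.09. For Kirrel2 and Kirrel3, r was -0.33 (permutation p = 0.334, adjusted 0.946) and rho was -0.38 (permutation p = 0.241, adjusted 0.722). Over all 45 pairs of the 10 genes, 4 had an unadjusted permutation p under 0.05 for Pearson's r and 5 for Spearman's rho. After adjustment 0 passed by either, with lowest adjusted p of 0.401 and 0.242.

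Set against the mean of 17 mature neuron markers, Kirrel3 and S100a5 had the highest positive correlations of the 10 genes and Efna5 the most negative. For Kirrel3, r was 0.80 (permutation p = 0.00590, 0.0590 adjusted over 10 genes) and rho 0.76 (permutation p = 0.00749, adjusted 0.0374). For S100a5, r was 0.64 (permutation p = 0.0150, adjusted 0.0750) and rho 0.73 (permutation p = 0.00408, adjusted 0.0374). The adjusted p of Kirrel3 and S100a5 was therefore under 0.05 by rank and not by Pearson's r. The relation to these markers was planned as a description and not as a test. Within genotypes r was 0.57 and 0.94 for Kirrel3 and 0.68 and 0.76 for S100a5, in wild-type and deletion animals. Without deletion replicates 2 and 3, the animals farthest from the median of the markers, r was 0.62 for Kirrel3 and 0.59 for S100a5. For Efna5, r was -0.60 (permutation p = 0.0335, adjusted 0.112) and rho -0.57 (permutation p = 0.0475, adjusted 0.158), with r of -0.49 in wild-type animals, -0.89 in deletion animals and -0.47 without deletion replicates 2 and 3. Kirrel2 (r -0.12) and Pcp4l1 (r 0.16) had little relation to these markers (permutation p = 0.725 and 0.627, adjusted 0.725 and 0.711).

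The wider guidance and activity pathways were counted in the same way. As 0.497% of all tested genes passed by limma, lists of this size would hold few or no calls at that share. Of 180 genes in 9 lists, 169 had a complete row, 160 passed the expression filter and were tested, and 0 passed by limma in either direction. Before adjustment 9 had a p under 0.05 (2 higher, 7 lower), which is 5.62% of those tested against 4.39% of all genes. The median log2 fold change was -0.02, against -0.01 over all tested genes. By edgeR 0 passed, and by DESeq2 1, Dpysl3.

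In the semaphorin list 0 of 30 tested genes passed by limma, with a median log2 fold change of -0.05. Nrp2, the second neuropilin and the receptor for Sema3f in dorsoventral sorting, had 2877 ± 187 normalized counts in wild-type animals and 2886 ± 138 with the deletion (SD, n = 6; log2 fold change 0.01). Dpysl3, a collapsin response mediator that acts in axon growth, lies on chromosome 18. It had 6863 ± 281 and 8278 ± 621 (SD, n = 6), and the cause of this difference was not tested. Its log2 fold change of 0.27 did not pass (limma adjusted p = 0.0694). Its normalized counts ran from 6508 to 7165 in wild-type and from 7295 to 8990 in deletion animals. These ranges did not overlap, which held for 0.629% of all tested genes. By DESeq2 its adjusted p was 4.84e-05, with a log2 fold change of 0.28, and without deletion replicate 1 its limma adjusted p was 0.0240. Next by p-value were Sema5a (-0.20), Sema4c (-0.15) and Sema6c (-0.16), all lower in the mean of deletion animals and none past the test (limma adjusted p 0.866 to 0.955).

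In the ephrin list 0 of 16 passed, with a median of -0.08 and 11 of 16 negative. Epha1 (-0.20), Efna3 (-0.12), Epha4 (0.17) and Epha7 (0.25) had the smallest p-values. Efna3, an ephrin-A ligand of these axons, had the mean normalized counts 1707 in wild-type and 1577 in deletion animals. In the slit and netrin list 0 of 16 passed, with Ntn4 at -0.26, Slit1 at -0.17, Slit3 at -0.24 and Unc5a at 0.40. Unc5a was low, with a wild-type mean of 13.3 normalized counts, and its log2 fold change had an SE of 0.25. Robo2, the receptor through which Slit1 repels dorsal axons, was at 2862 ± 106 and 2724 ± 203 (SD, n = 6; log2 fold change -0.07).

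In the immunoglobulin adhesion list 0 of 20 passed. Cntn2, a contactin of growing axons, had 131 ± 27.7 normalized counts with the interval and 169 ± 15.7 without it (SD, n = 6), a log2 fold change of 0.39 at a limma adjusted p of 0.722. Kirrel, the third member of the Kirrel family, had 1429 ± 121 and 1272 ± 159 (SD, n = 6), a log2 fold change of -0.17 at a limma adjusted p of 0.955. Nfasc (-0.16) and Alcam (0.10) followed. Of 10 non-clustered protocadherins besides Pcdh10, 0 passed. Pcdh18 was at -0.28, Pcdh20 at 0.31, Pcdh8 at -0.14 and Pcdh15 at 0.25. Pcdh20 was low, with a wild-type mean of 26.4 normalized counts, and its log2 fold change had an SE of 0.20. Pcdh17 was at 0.07 and Pcdh19 at -0.02. Among teneurins and synaptic adhesion genes 0 of 12 passed, with Nlgn2 at -0.26, Nrxn3 at 0.68, Nlgn1 at 0.47 and Tenm3 at -0.09. Nrxn3 and Nlgn1 were low, with wild-type means of 16.3 and 15.1 normalized counts, and their log2 fold changes had SEs of 0.33 and 0.26. Pcdh17, Pcdh19, Nrp2, Robo2 and the immediate early genes Fos and Arc were chosen after their values were seen.

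The signalling that connects the receptor to these genes also gave 0 calls among 27 tested genes, with a median log2 fold change of -0.0062 against -0.014 over all tested genes. Camk4 (0.20), Gng13 (-0.38), Camk2b (0.24) and Arrb2 (-0.11) had the smallest p-values. Adcy3, the adenylyl cyclase of olfactory cilia, had 8716 ± 645 normalized counts in wild-type animals and 8383 ± 831 with the deletion (SD, n = 6; log2 fold change -0.06), and the channel subunit Cnga2 at 13903 ± 1396 and 13246 ± 1638 (-0.07).

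Of the immediate early genes 0 of 17 passed, with a median of 0.04. Fos, an early transcription factor, was spread widely, from 78.1 to 770 in wild-type and from 59.5 to 708 in deletion animals. Arc ran from 32.7 to 82.8 in wild-type and only from 57.7 to 67.7 in deletion animals. The SD of 15 of the 17 exceeded that of 80% of genes of like level among wild-type animals, and that of 8 among deletion animals. Jun (-0.12), Fosb (0.66), Nr4a3 (0.69) and Nr4a2 (0.21) had the smallest p-values of that list. The log2 fold changes of Fosb and Nr4a3 had SEs of 0.54 and 0.63. Of the S100 and calmodulin genes related to S100a5 and Pcp4l1, 0 of 12 passed and 11 of 12 were negative, with a median of -0.05. S100a6 was at -0.16, S100b at -0.21, S100a1 at -0.16 and S100a4 at -0.34.

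Markers of the cells that could carry these transcripts were as follows. Summed mature neuron markers ran from 145775 to 197157 normalized counts in wild-type and from 140500 to 188187 in deletion animals, with 17 of 18 listed genes in the table, each with reads in every library. Immature neuron markers ran from 29123 to 32585 and from 26844 to 32595 (14 of 14 genes). Endothelial cells also express Nrp1, and 9 of 10 listed markers of these cells were in the table and summed to 1194 to 1451 in wild-type and 790 to 1494 in deletion animals (median log2 fold change -0.16, with Esam at -0.39). Ensheathing glia markers summed to 5306 to 5684 and 4507 to 6013 (10 of 10 genes), and bone and fibroblast markers to 72155 to 122305 and 64804 to 98734 (10 of 10). Sustentacular markers summed to 193296 to 266232 and 184717 to 220493 (8 of 9 listed genes). No marker in the table was at 0 in any library. In these 6 lists 0 genes passed by limma, edgeR or DESeq2, and 2 genes had an unadjusted limma p under 0.05, Esam and Cyp1a2, both lower. All 10 bone and fibroblast markers had negative log2 fold changes (median -0.11). Of the other marker lists, erythroid genes had a median of 0.27 (6 of 6 positive), precursor and basal cell genes 0.14 (6 of 9 positive) and immune genes -0.11 (8 of 9 negative). None of their genes passed. Neurod1, a factor of neuronal precursors, was at 0.23 (limma unadjusted p = 0.0270, adjusted 0.955), and Cd74, of antigen-presenting cells, at -0.25 (limma unadjusted p = 0.00891, adjusted 0.787). The part of cell content in the members' values was not tested, and the relation to neuron markers was a description.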

How the data were processed

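Olfactory mucosa RNA of 6 wild-type and 6 deletion animals was measured, with 1 library each. Per the submitters' processing notes, STAR 2.6.0 and DESeq2 were used with build GRCm38.p6. How reads were assigned to genes is not stated. The values deposited by the authors are signal per gene, namely reads scaled by a size factor. All values were whole multiples of a library's smallest value above 0 (100%, tolerance 0.01 of a read), so whole reads were recovered. The authors' deposited table also holds their log2 fold change, p-value and adjusted p-value, and a score that was not used. The table as used here ends inside a row. That row was left out, and any genes beyond it were not analysed here. Names and exon lengths came from GENCODE M21 for 39296 rows, matched by Ensembl identifier. Exon lengths counted the merged exons of all annotated transcripts of a gene, and the order of levels per length depends on this choice.

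Limma 3.58.1 (R 4.3.3, trend and robust moderation) was fitted to log2(value + 1) of the deposited values, with genotype alone in the model, over the 17320 genes passing edgeR's expression filter with a minimum count of 10. Fold changes on this scale understate the change of low genes. Tests were two-sided, and their p-values were adjusted by Benjamini-Hochberg over all tested genes. The lowest count of a member in a library was 272 reads. Correlations used 100000 permutations. Alternatives included edgeR 4.0.16 and DESeq2 1.42.0 on the recovered reads, and other scalings, filters, pseudocounts and library sets. The model was run on simulated counts with folds of 0.1, 0.25, 0.5 and 2. It called 43 of 50 genes at a fold of 2 and 10 of 17120 unchanged genes. Smaller changes, such as those estimated for the 10 members, were not simulated. Members and lists were chosen with earlier results of these data known. Named genes were the 10 members, list genes past the threshold and otherwise up to 4 per list with the smallest p, and defining tissue markers. Of the 180 pathway genes, 11 had no complete row and 9 did not pass the filter.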

Additional observations from a re-analysis of the deposited data

Results flagged for a closer look

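In 20 sets of 6 values (10 genes in each genotype), 1 animal stood apart from its group, where chance gives about 1. For Pcdh10, wild-type replicate 5 had a normalized count of 1313, while the other wild-type animals lay between 503 and 788.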

How the results depend on the processing

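In 23 alternatives 0 of the 10 genes passed. Kirrel2, Plxna1, Efna5, Epha5, Pcdh10 and Pcp4l1 kept their direction in all 23. Values near 0 changed sign for 4 genes. Nrp1 was 0.033 when centred on mature neuron markers and 0.044 without deletion libraries 2 and 3. With single libraries left out, Nrp1 ran from -0.061 to 0.011 and Kirrel3 from -0.15 to 0.013, both positive without deletion replicate 3, and Sema3a from -0.0070 to 0.064 and S100a5 from -0.0062 to 0.16, both negative without wild-type replicate 5. Kirrel2 ran from 0.033 (without wild-type replicate 2) to 0.26 (without deletion replicate 5), Plxna1 from -0.16 (wild-type 3) to -0.020 (wild-type 5), Efna5 from -0.20 (wild-type 4) to -0.054 (wild-type 5), Epha5 from 0.11 (wild-type 5) to 0.28 (deletion 6), Pcdh10 from -0.41 (wild-type 6) to -0.13 (wild-type 5) and Pcp4l1 from 0.18 to 0.34. An unadjusted p under 0.05 arose for Efna5 without wild-type 4, Pcdh10 without wild-type 6, Kirrel2 without deletion 5 and Epha5 without deletion 6. Without deletion libraries 2 and 3 Kirrel2 was 0.0085 and Epha5 0.077. The unadjusted p of Pcp4l1 was above 0.05 in 8 alternatives: with no expression filter, with deletion libraries 2 and 3 left out, and with any of wild-type replicates 2 and 5 or deletion replicates 1, 2, 3 and 6 left out. Over all genes, the higher count was 15 by DESeq2, 16 without the filter, 23 without deletion libraries 2 and 3, and 6 to 17 with single libraries left out, of which 17 was without deletion replicate 2. The lower count was 44 with a minimum count of 50, where fewer genes were tested, and 73 to 83 with single libraries left out. In the semaphorin list 1 gene passed by DESeq2 and 1 without the filter, and 0 to 1 with single libraries left out, in each case Dpysl3. A replicate block gave 5 higher, 72 lower and 0 of the 10 genes. Replicate numbers showed no sign of pairing in these values: same-numbered deviations correlated at -0.24 to -0.01, and 0 libraries correlated best with their own number. The labels do not say whether animals were paired, and this check cannot exclude it. The cause of these changes was not tested. Chosen after the data were seen, centring on neuron markers gave r 0.66 for S100a5 and Pcp4l1, and leaving out wild-type replicate 5 gave 0.55. With 6 animals per genotype, differences inside the printed intervals could not be resolved.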
